A study of Mus musculus with 2 samples.

Results

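This account describes 46 genes of macrophages, mast cells, granulocytes and lymphocytes, and of the signals that act on them, in the stomach of the mouse embryo. They were taken from a list of symbols and matched through the GENCODE M21 annotation, and all 46 were among the 43346 genes of both gene tables. By known role they comprised 26 macrophage genes, 4 genes for growth factors, a chemokine and its receptor, 4 genes of antigen presentation, 5 genes of granulocytes and mast cells, and 7 lymphoid genes. The rule named them by symbol and set no limit on a measured value. The 46 genes and the lists compared with them were chosen with earlier results of these data known, so the choice was not blind.

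The samples were total RNA of whole stomachs of B6NCrl embryos, male and female mixed, at embryonic day 15.5, without any treatment or genetic change. The series holds 1 group with 2 biological replicates, of which replicate 1 pooled 78 embryos and replicate 2 pooled 62. The labels give them as separate biosamples under 1 shared donor entry, so how far the pools are independent is not known, and SDs and ratios measure the spread between these 2 samples. Each library was made from 10 ng of RNA longer than 200 nucleotides with ERCC spike-ins, which are synthetic RNAs added in known amounts. Since each value is an average over a pool of whole organs, fewer cells of a type and less RNA per cell cannot be told apart, and the cell that held a transcript was not seen.

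The first macrophages of a mouse embryo arise in the yolk sac, and later ones from monocytes of the fetal liver, which is the main blood-forming organ at this stage. Macrophages settle in every organ, clear dying cells and secrete complement C1q, and many depend on the receptor CSF1R. Mast cells also enter tissues before birth, whereas T and B cells mature in the thymus, liver and marrow, and most populate the gut wall only around and after birth.

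Replicate 1 held 44038879 expected counts and replicate 2 held 45625704, of which 43209506 and 44257493 lay on genes. Spike-ins took 1.88% of the counts in replicate 1 and 3.0% in replicate 2. The 46 genes drew 46007 counts in replicate 1 and 44087 in replicate 2, or 0.106% and 0.0996% of the counts on genes. The tissue label was met by genes of stomach mesenchyme and epithelium, with the stomach mesenchymal regulator Barx1 at 142 TPM in replicate 1 and 166 in replicate 2, and Epcam at 333 and 359 TPM. The highest epithelial genes were Krt8, Krt19 and Krt18, the highest mesenchymal ones Col3a1, Col1a1 and Tcf21, and the highest endothelial ones Egfl7, Eng and Pecam1, and none of these lists held a gene called different by the rule given further on. The pools also differed in genes of blood formation and liver, and those values stand beside the granulocyte genes.

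Levels are given as TPM (transcripts of a gene per fixed total of transcripts in the library), which corrects for transcript length and so allows genes to be compared with each other. Detection was set at 1 TPM, to be reached in replicate 1 and in replicate 2. By this measure 37 of the 46 genes (80.4%) were detected, against 13846 of all 21474 protein-coding genes (64.5%). The median over the 46 genes was 8.73 TPM in replicate 1 and 6.59 in replicate 2, and that of all protein-coding genes was 5.70 and 5.72 TPM. Genes classed as macrophage carried most of the signal, with 76.1% and 75.8% of the TPM of the 46 genes. Several of them are not limited to macrophages. Lyz2, which granulocytes also express, had 283 and 246 TPM of the class sums of 859 and 792 TPM. Growth factor and chemokine genes took 15.0% and 16.7%, granulocyte and mast cell genes 4.97% and 3.75%, antigen presentation genes 3.65% and 3.41%, and lymphoid genes 0.292% and 0.378%.

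**Figure D1:**
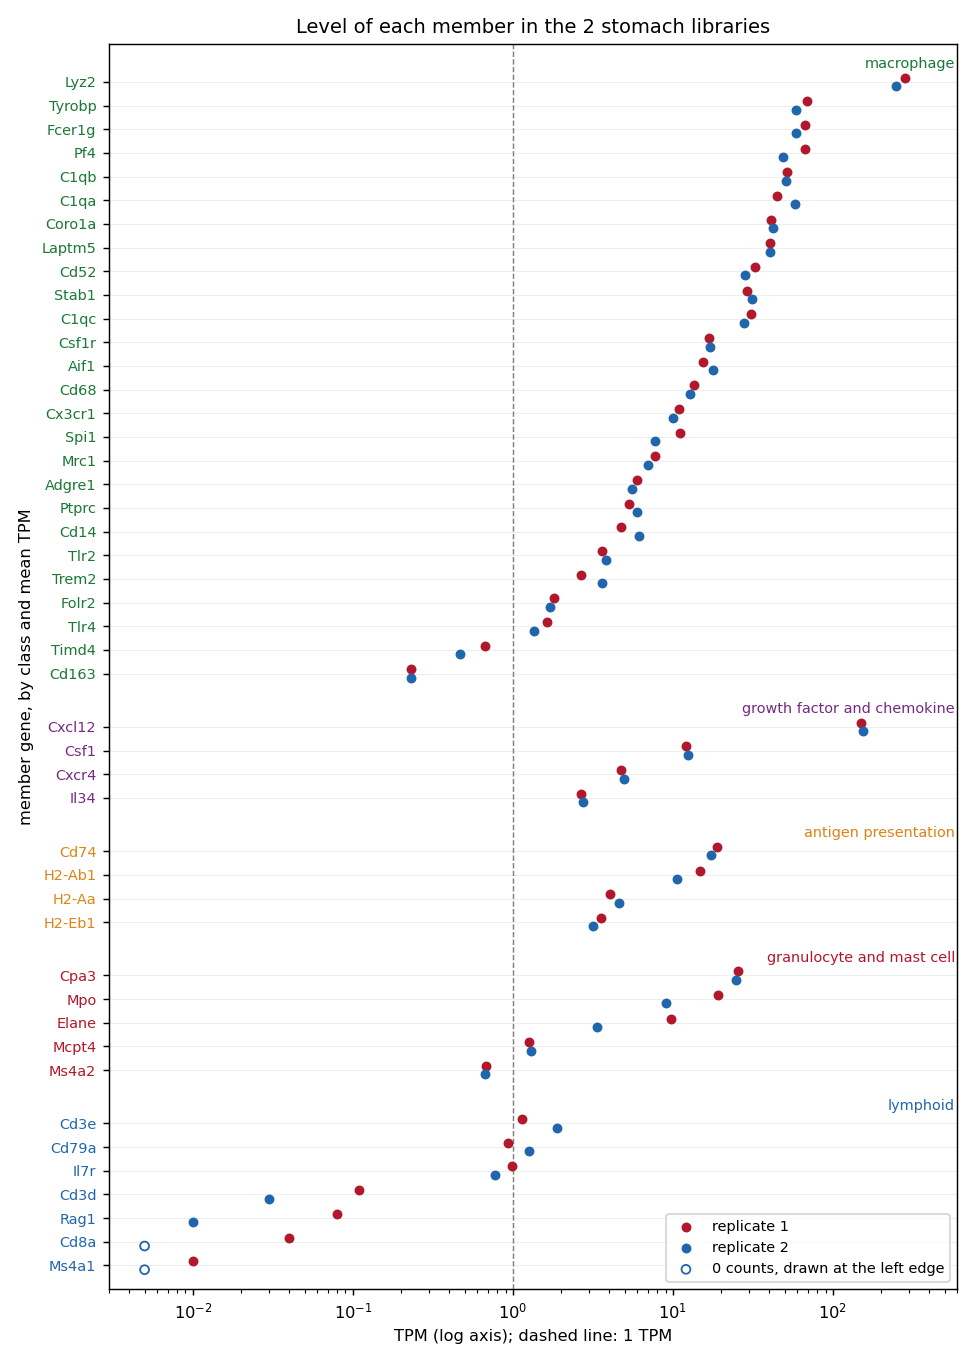
Level of each of the 46 genes (rows) in TPM on a log axis, with replicate 1 in red above replicate 2 in blue and the classes separated by colour; open circles mark 0 counts and the dashed line marks 1 TPM. Of the 26 macrophage genes 24 lie right of the line in both libraries, Mpo and Elane lie further right in replicate 1, and 5 of the 7 lymphoid genes lie left of the line in both libraries.

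Macrophage genes were broadly present: 24 of 26 reached 1 TPM in both libraries, and their median was 14.5 TPM in replicate 1 and 14.9 in replicate 2. The receptor gene Csf1r, whose product many macrophages need to survive, stood at 16.7 TPM in replicate 1 and 17.1 in replicate 2, on 2300 and 2341 counts. Spi1, which encodes PU.1, the transcription factor that sets the myeloid lineage, stood at 11.1 and 7.72 TPM. Its log2 ratio of counts, replicate 1 over replicate 2, was 0.43 (95% interval for counting error 0.23 to 0.64), so that the 2 libraries differed for Spi1 by more than counting error but by less than 2-fold. With library sizes set by the spike-ins the log2 ratio of Spi1 was 1.11, which is over 2-fold.

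Receptors on the macrophage surface covered a wide range. Stab1, which encodes a scavenger receptor of macrophages and sinus endothelium, was listed highest, at 29.0 TPM in replicate 1 and 31.3 in replicate 2. Most of that TPM was not on its full-length message, though most of its counts were, as the transcript shares further on show. Cx3cr1, the fractalkine receptor of monocytes and tissue macrophages, followed at 11.0 and 10.1 TPM, and the mannose receptor gene Mrc1 at 7.72 and 7.02 TPM. Adgre1, which encodes the macrophage antigen F4/80, had 5.94 TPM in replicate 1 and 5.54 in replicate 2. Folr2, a folate receptor gene of fetal-derived tissue macrophages, was low at 1.82 and 1.71 TPM, and its exons share 975 bases with an antisense gene that had 2.91 and 3.90 TPM.

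The remaining receptors of this kind lay under the detection limit. Timd4, whose product binds phosphatidylserine on dying cells, had 0.67 TPM in replicate 1 and 0.47 in replicate 2, on 43 and 30 counts. Cd163, the receptor for haemoglobin bound to haptoglobin, had 0.23 TPM in both libraries, on 30 and 31 counts. Both were read in each library, far below the level of Csf1r.

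Lysosomal and cytosolic genes included the highest of all 46 genes. Lyz2, the lysozyme of macrophages and granulocytes, had 283 TPM in replicate 1 and 246 in replicate 2 (265 ± 26.4, SD, n = 2), on 10214 and 8907 counts. Its near-identical neighbour Lyz1, the lysozyme of Paneth cells, held 79 and 57 counts, and the authors' posterior SD of the count split between the pair was 1.23 and 0.92 reads. That SD covers the split of shared reads in the authors' model and no other error. Cd68, a lysosomal membrane protein gene of macrophages, had 13.6 TPM in replicate 1 and 12.7 in replicate 2. Aif1, which encodes the actin-binding protein IBA1, had 15.4 and 17.9 TPM.

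The adapters Tyrobp and Fcer1g came next to Lyz2 and Cxcl12 in the order of mean TPM. They encode small membrane proteins, DAP12 and the Fc receptor gamma chain, that carry activation motifs for receptors without a signalling tail of their own. Tyrobp stood at 69.2 TPM in replicate 1 and 58.4 in replicate 2, and Fcer1g at 67.3 and 59.2 TPM. Trem2, a lipid-sensing receptor that signals through DAP12, had 2.68 and 3.62 TPM. Per length, Tyrobp exceeded Trem2 by 25.8-fold in replicate 1 and 16.1-fold in replicate 2.

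The chains of complement C1q, the molecule that starts the classical pathway, are encoded by 3 neighbouring genes on chromosome 4, with 3.62 kb between C1qb and C1qc and 2.85 kb between C1qc and C1qa. C1qb had 51.5 TPM in replicate 1 and 50.9 in replicate 2, C1qa had 44.5 and 57.6 TPM, and C1qc had 30.8 and 27.9 TPM. C1qc was the lowest of the chains in both libraries, at 0.573 ± 0.0349 of C1qb (SD, n = 2). The order of the other two differed, since C1qa was at 0.864 of C1qb in replicate 1 and at 1.13 of it in replicate 2. C1qa accordingly had a log2 ratio of -0.34 between libraries (95% interval -0.44 to -0.23), which became 0.34 when libraries were scaled to the spike-ins.

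Genes for microbial sensors were detected at low levels. Cd14, the lipopolysaccharide co-receptor gene, had 4.73 TPM in replicate 1 and 6.17 in replicate 2. Tlr2, which senses bacterial lipoproteins, had 3.60 and 3.81 TPM, and Tlr4, which senses lipopolysaccharide, had 1.64 and 1.35 TPM. Of 15 other Toll-like receptors and cofactors, 8 were detected, and the highest were signalling and transport partners rather than receptors: the adapter gene Myd88 at 28.5 and 26.4 TPM, Unc93b1 at 17.8 and 16.9 TPM and the Tlr4 partner gene Ly96 at 16.7 and 14.4 TPM.

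Pf4, a chemokine gene of platelets and their precursors that fetal macrophages also express, had 66.8 TPM in replicate 1 and 48.5 in replicate 2. Platelet and megakaryocyte genes were much lower, with 6 of 10 detected and medians of 1.71 and 1.46 TPM. Ppbp, the neighbouring platelet chemokine gene, was at 3.10 and 3.91 TPM, and Itga2b and Itgb3, which encode the platelet fibrinogen receptor, at 6.40 and 5.96 TPM and at 5.11 and 5.42 TPM.

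The pan-leukocyte genes Coro1a, Laptm5, Cd52 and Ptprc are on in most white blood cells, not in macrophages alone. Coro1a, an actin-binding protein gene, had 41.2 TPM in replicate 1 and 42.4 in replicate 2, and the lysosomal membrane protein gene Laptm5 had 40.3 and 40.4 TPM. Cd52, which encodes a small surface glycoprotein, had 32.6 and 28.4 TPM, and Ptprc, which encodes the surface phosphatase CD45, had 5.30 and 5.94 TPM. Without these 4 genes the macrophage median over both libraries was 11.9 TPM, against 14.7 TPM with them, a choice made after the values were seen.

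Other genes of the macrophage programme were described from a separate list, of which 27 of 31 were detected, with medians of 5.09 TPM in replicate 1 and 5.24 in replicate 2. Its highest members were Spp1 at 147 and 224 TPM, Axl at 67.3 and 70.5 TPM and Cbr2 at 68.3 and 44.8 TPM, each of which other cell types also express. All 12 genes for myeloid signalling kinases and adapters were detected, led by Lcp1 at 40.2 and 47.2 TPM, Lyn at 17.8 and 19.3 TPM and Ptpn6 at 16.3 and 15.5 TPM.

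Signals that act on these cells were present beside their receptors. Csf1, the main ligand of CSF1R, had 12.1 TPM in replicate 1 and 12.5 in replicate 2. Il34, the gene of its second ligand, had 2.65 and 2.76 TPM, and Csf1 exceeded it by 4.55 ± 0.0314-fold per length (SD, n = 2). That SD leaves out counting error, and Il34 rested on 89 and 93 counts. Coding transcripts held 58.5% and 54.7% of the Il34 TPM, against 99.1% and 100% for Csf1, so the ratio is not one of coding message. The chemokine gene Cxcl12, a product of mesenchymal and endothelial cells, had 150 TPM in replicate 1 and 155 in replicate 2 and ranked second of the 46 genes. Its receptor gene Cxcr4 had 4.72 and 4.95 TPM, so that ligand exceeded receptor by 31.8-fold and 31.2-fold. All 4 genes lay within 0.08 of 0 on the log2 scale between libraries.

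RNA of all 4 genes of MHC class II antigen presentation was detected, at a median of 9.41 TPM in replicate 1 and 7.60 in replicate 2. Presentation itself was not measured. Cd74, which encodes the invariant chain that escorts class II molecules, had 18.8 and 17.3 TPM. H2-Ab1, the gene of the I-A beta chain, had 14.8 TPM in replicate 1 and 10.6 in replicate 2, while the partner alpha chain gene H2-Aa, 13.3 kb away on chromosome 17, had 4.07 and 4.59 TPM. H2-Eb1, the I-E beta chain gene 18 kb further on, had 3.58 and 3.18 TPM. The beta to alpha ratio of I-A was 3.63 in replicate 1 and 2.31 in replicate 2, and H2-Ab1 alone of these genes had an adjusted p below 0.05 between libraries (log2 ratio 0.48, 95% interval 0.29 to 0.68, adjusted p 1.03e-05 by an exact binomial test on the counts).

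Of 11 genes for the loading and control of class II, 5 were detected. The lysosomal reductase gene Ifi30 was highest at 87.7 TPM in replicate 1 and 89.0 in replicate 2, followed by H2-DMa at 4.94 and 6.41 TPM and Cd40 at 5.79 and 5.78 TPM. Ciita, the master regulator of class II genes, had 0.12 and 0.17 TPM. Of 9 class I presentation genes, 8 were detected, led by B2m at 368 and 275 TPM, H2-D1 at 122 and 110 TPM and H2-K1 at 74.7 and 70.2 TPM. Of 9 dendritic cell genes, 2 were detected, Zbtb46 at 8.18 and 7.89 TPM and Batf3 at 8.07 and 6.73 TPM. Zbtb46 is not limited to dendritic cells. Siglech came next at 0.72 TPM in both libraries. Flt3, Itgax and Clec9a, also of this list, lay between 0.09 and 0.42 TPM.

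Mast cell genes were read at unequal levels. Cpa3, the mast cell carboxypeptidase gene, had 25.4 TPM in replicate 1 and 24.9 in replicate 2, on 1057 and 1022 counts. Mcpt4, a chymase gene of connective tissue mast cells, had 1.27 and 1.30 TPM on 35 and 36 counts. Ms4a2, the beta chain gene of the high-affinity IgE receptor, had 0.68 and 0.67 TPM on 38 and 24 counts, and so missed the detection limit in both libraries. In replicate 1 89.7% of the Ms4a2 level lay on coding transcripts, against 42.6% in replicate 2. None of the 3 passed an adjusted p of 0.05 between libraries, at log2 ratios of 0.09, 0.00 and 0.69.

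Of 14 other mast cell and basophil genes, 10 were detected and none was called different. Kit, the stem cell factor receptor of mast cells that is also on pacemaker cells of the gut wall, was highest at 28.4 TPM in replicate 1 and 35.7 in replicate 2. The chymase gene Cma1 had 22.5 and 18.8 TPM. Hdc, the gene of the enzyme that makes histamine, is not limited to mast cells and had 13.3 and 13.1 TPM. The IgE receptor alpha chain gene Fcer1a lay at 0.09 and 0.22 TPM.

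Of the 5 granulocyte and mast cell genes 4 were detected, and the 2 genes of granulocyte precursors had the highest ratios between the pools. Elane, the gene of neutrophil elastase (ENSMUSG00000020125.6, mm10 chr10:79886247-79888215, plus strand), had 9.75 TPM in replicate 1 and 3.34 in replicate 2, on 247 and 85 counts. Mpo, which encodes myeloperoxidase (ENSMUSG00000009350.9, mm10 chr11:87793581-87804413, plus strand), had 19.1 and 9.09 TPM, on 1115 and 595 counts. Both proteins fill the primary granules that promyelocytes make and mature neutrophils carry without much further transcription. Both genes were thus higher in replicate 1, by a log2 ratio of 1.58 for Elane (95% interval 1.22 to 1.95) and 0.95 for Mpo (0.80 to 1.09).

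To read such ratios against the whole table, the counts of each gene were compared by an exact two-sided binomial test with TMM library sizes, over the 20918 genes whose summed counts reached 10. The test compares these 2 libraries and allows for counting error alone, so it says nothing on how far other pools would differ. A gene was called at a Benjamini-Hochberg adjusted p below 0.05 and a ratio of at least 2-fold. By this rule 1353 genes (6.47%) were called, 1189 of them higher in replicate 1 (5.68%) and 164 lower (0.784%). Of the 46 genes, 43 had enough counts and 2 were called, Elane (adjusted p 4.41e-19) and Rag1 (adjusted p 0.00293), both higher in replicate 1. That is a share near the background. Mpo passed the p (adjusted p 2.44e-38) and fell just short of 2-fold.

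The edgeR exact test with a common dispersion across the table, a biological coefficient of variation of 0.197, called 687 genes (3.28%). Each arm of that test is 1 library and the dispersion was estimated from the same pair, so it is a stricter ranking of these libraries and no independent check. Elane was the 1 gene of the 46 among them (adjusted p 0.0183), while Mpo had an adjusted p of 0.40 and Rag1 of 0.0897. Among the 46 genes, 15 had an adjusted binomial p below 0.05, a share near that of all genes tested (6588 genes, 31.5%), and 38 of the 43 tested lay within 1.5-fold between libraries. The 15 included 10 of the 26 macrophage genes, with Lyz2 at a log2 ratio of 0.24 (adjusted p 7.55e-29) and Pf4 at 0.50 (adjusted p 1.54e-11), and none of the growth factor and chemokine genes.

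**Figure D2:**
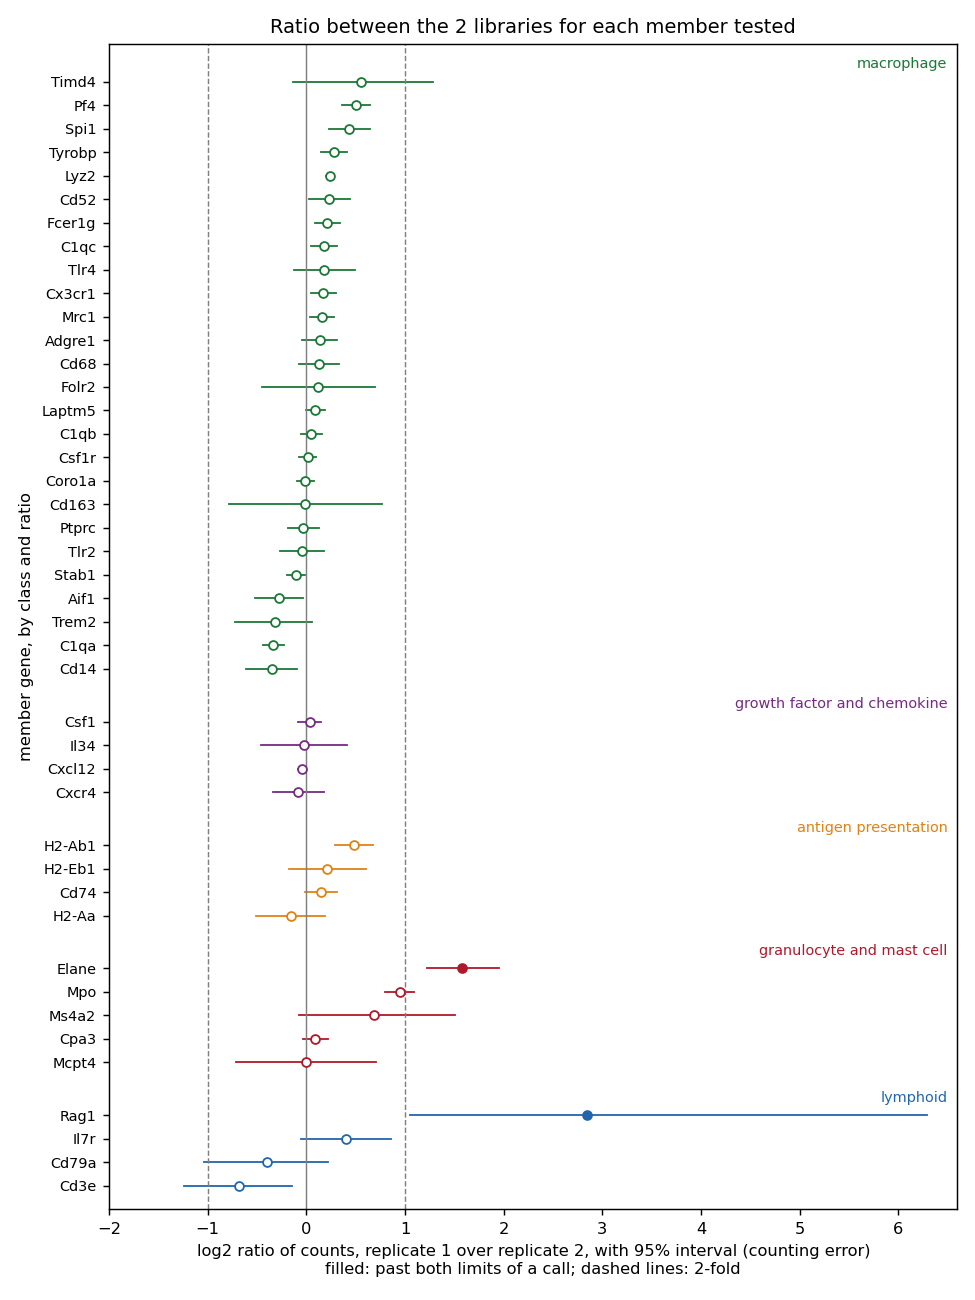
Log2 ratio of counts, replicate 1 over replicate 2, for the 43 genes tested, with 95% intervals for counting error; filled points passed both the adjusted p and the 2-fold limit, and dashed lines mark 2-fold. Elane and Rag1 are filled, Mpo lies just inside the 2-fold line, and the interval of Rag1 spans from 1.05 to 6.29.

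Other genes of primary granules were in a list of monocyte and neutrophil genes. Of its 16 members, 14 were detected and 3 were called, all higher in replicate 1. Prtn3, the gene of proteinase 3, had 8.69 TPM in replicate 1 and 4.22 in replicate 2 (log2 ratio 1.16). Ctsg, which encodes cathepsin G, had 2.40 and 0.82 TPM (log2 ratio 1.56). Ly6g, a surface antigen gene of neutrophils and not of primary granules, had 0.88 and 0.31 TPM on 23 and 8 counts (log2 ratio 1.51). None of the 3 passed the edgeR test.

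Genes of later granules and of mature cells were chosen for comparison after these values were seen. Ly6g, at a log2 ratio of 1.51, was not among those chosen. Ngp had 56.0 TPM in replicate 1 and 53.6 in replicate 2 (log2 ratio 0.10), Camp had 24.3 and 25.9 TPM (log2 ratio -0.06), and Ltf had 20.4 and 15.5 TPM (log2 ratio 0.43). Mmp8 had 9.48 and 6.70 TPM (log2 ratio 0.54) and Lcn2 had 25.2 and 20.4 TPM (log2 ratio 0.34), and of these 5 genes Ltf, Mmp8 and Lcn2 had an adjusted p below 0.05. Gfi1 and Cebpe, regulators of granulocyte precursors, did not follow the primary granule genes, with 1.29 and 2.03 TPM for Gfi1 (log2 ratio -0.62, adjusted p 0.00341) and 1.11 and 1.22 TPM for Cebpe (log2 ratio -0.10). By mean TPM the highest of the list were the alarmin gene S100a8, at 408 and 314 TPM, then Plac8, at 172 and 182 TPM, and the alarmin gene S100a9, at 192 and 149 TPM. The difference in ratio between early and late granule genes was not tested.

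Most red cell and liver genes, 7 of 10 in each list, were called in the same direction as Elane. All 10 red cell genes were detected and 7 were called higher in replicate 1, with a median log2 ratio of 1.18 and a summed level of 354 TPM in replicate 1 and 209 in replicate 2. Of 10 liver genes, all detected, 7 were called higher in replicate 1, with a median log2 ratio of 1.38 and a summed level of 2339 and 1182 TPM. Klf1, a red cell regulator, had 32.2 and 12 TPM, and Alb, the albumin gene, had 225 and 67.7 TPM. The called red cell genes included Klf1, Gata1, Slc4a1, Epb42 and Hemgn, with log2 ratios of 1.15 to 1.46, and the highest of that list by mean TPM were Alas2, Tfrc and Slc4a1. Tfrc went the other way, at a log2 ratio of -0.11. The called liver genes were Afp, Alb, Apoa2, Trf, Ahsg, Fgb and Serpina1a, with log2 ratios of 1.33 to 1.84, and the highest were Apoa1, Afp and Apoa2. Cps1, an enzyme gene of liver and gut, went the other way, with 40.5 TPM in replicate 1 and 70.0 in replicate 2 (log2 ratio -0.75). The part of such RNA in the Elane and Mpo ratios was not tested.

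Cd5l and Clec4f, genes of liver macrophages, were also called higher in replicate 1. Cd5l had 2.71 TPM in replicate 1 and 1.30 in replicate 2 (log2 ratio 1.09), and Clec4f, on 15 and 2 counts, had 0.20 and 0.03 TPM (log2 ratio 2.67). Clec4g, of liver sinus endothelium, had 0.28 and 0.03 TPM and was called too, while the highest of its list, Lyve1, Flt4 and Stab2, were not. Vsig4 was near 0 in both libraries, at 0.05 and 0.15 TPM. Against these, the median log2 ratio of the 26 macrophage genes was 0.13, with 17 higher and 9 lower in replicate 1, none called and a range of -0.35 to 0.55. That of all genes tested was 0.00. Scaling to the spike-ins shifted the libraries by 0.68 on the log2 scale, somewhat less for ratios on few counts. The macrophage median was then 0.80, and Pf4, Spi1 and Timd4 were called higher in replicate 1, as were Elane, Mpo, Rag1, H2-Ab1, Il7r and Ms4a2.

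**Figure D3:**
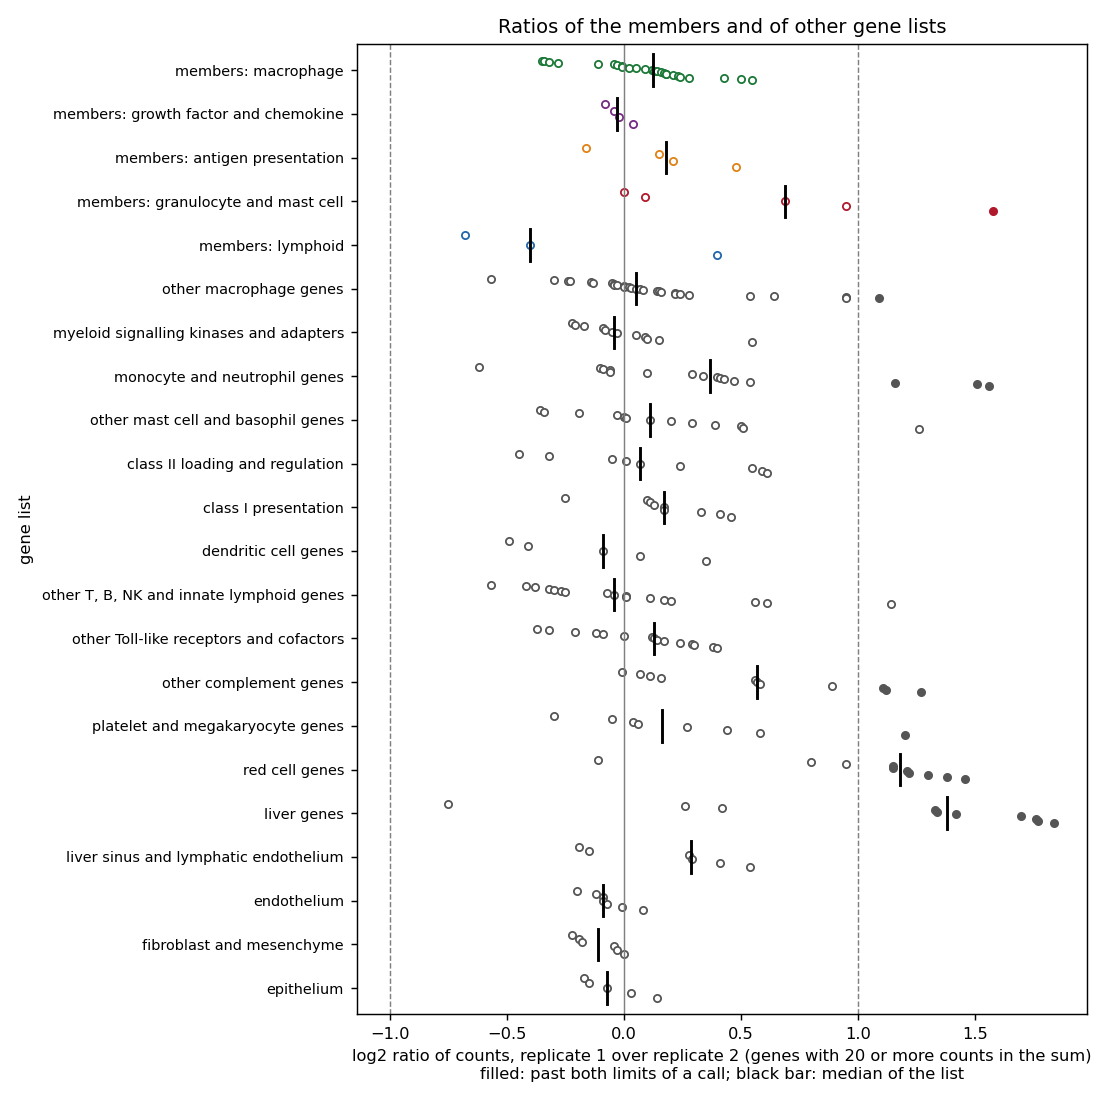
Log2 ratios of counts, replicate 1 over replicate 2, for the genes of each class and of 17 other lists (genes whose summed counts reached 20); black bars are medians and filled points passed both limits. Macrophage genes centre near 0.13, red cell and liver genes at 1.18 and 1.38, and endothelial, mesenchymal and epithelial genes at -0.09, -0.11 and -0.07.

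The DNA before the starts of Elane, Mpo and the other genes was searched for a motif of PU.1, the product of Spi1. PU.1 is known to act on Elane and Mpo in the myeloid lineage, but its part in their ratios between libraries was not tested. RefSeq promoter windows (GRCm38.p6, 250 bases before to 50 after the start) were found for 34 of the 46 genes; Spi1, Csf1r, Cd74, Cd14, C1qa, Tyrobp, Adgre1, Cd52, H2-Ab1, Tlr4, Il34 and Ms4a1 had no entry. The PU.1 motif GAGGAAGT, searched on both strands, was in the windows of 4 of the 34 genes (11.8%), namely Elane, Mpo, Pf4 and C1qc, against 997 of all 27025 genes with a window (3.69%). The shorter GAGGAA, which every match of the longer motif contains, was in 16 of the 34 (47.1%) and in 31.3% of all genes. By class, GAGGAA was in 4 of 6 lymphoid genes (66.7%), 10 of 18 macrophage genes (55.6%) and 2 of 5 granulocyte and mast cell genes (40.0%). It was in 0 of 3 growth factor and chemokine genes and 0 of 2 antigen presentation genes. The 250 bases before the start of each of the 4 genes with GAGGAAGT follow, 5′ to 3′ on the gene's strand, with the motif or its reverse complement in capitals.
Elane: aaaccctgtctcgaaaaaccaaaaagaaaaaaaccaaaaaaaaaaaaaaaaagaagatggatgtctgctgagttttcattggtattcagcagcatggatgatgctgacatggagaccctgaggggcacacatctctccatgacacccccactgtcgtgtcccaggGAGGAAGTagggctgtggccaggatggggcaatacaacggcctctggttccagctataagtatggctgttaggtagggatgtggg
Mpo: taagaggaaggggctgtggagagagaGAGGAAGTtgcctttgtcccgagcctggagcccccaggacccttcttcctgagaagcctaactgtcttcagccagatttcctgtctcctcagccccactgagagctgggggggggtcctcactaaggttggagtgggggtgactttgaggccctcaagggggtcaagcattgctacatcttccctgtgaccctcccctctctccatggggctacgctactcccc
Pf4: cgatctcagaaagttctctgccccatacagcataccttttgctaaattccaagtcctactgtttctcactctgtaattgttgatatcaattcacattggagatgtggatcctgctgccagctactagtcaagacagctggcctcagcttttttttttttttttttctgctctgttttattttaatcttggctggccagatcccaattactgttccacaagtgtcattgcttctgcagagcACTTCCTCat
C1qc: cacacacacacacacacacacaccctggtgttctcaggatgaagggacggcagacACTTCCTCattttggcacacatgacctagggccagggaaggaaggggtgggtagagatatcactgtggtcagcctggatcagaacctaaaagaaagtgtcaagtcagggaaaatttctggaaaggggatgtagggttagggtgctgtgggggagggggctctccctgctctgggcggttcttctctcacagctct

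The Elane stretch is chr10:79886062-79886311 on the plus strand, and its motif began at -85 from the RefSeq start. The Mpo stretch is chr11:87793534-87793783 on the plus strand, with the motif at -224, also as written. The Pf4 stretch is chr5:90772185-90772434 on the plus strand and the C1qc stretch is chr4:136892915-136893164 on the minus strand, with the reverse complement at -10 and -195. The M21 models of Elane, Mpo and C1qc start within their stretches, upstream of the RefSeq starts. The 4 genes did not share a ratio between libraries: Elane and Mpo stood at 1.58 and 0.95 on the log2 scale, Pf4 at 0.50 and C1qc at 0.18. A match is a description of letters and not a site of binding, which these data did not measure.

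Lymphoid genes were scarce. Of 7, only Cd3e reached 1 TPM in both libraries, and the median was 0.11 TPM in replicate 1 and 0.03 in replicate 2. The macrophage median exceeded it by 6.47 ± 0.51 on the log2(TPM + 0.1) scale (SD, n = 2), with 6.11 in replicate 1 and 6.84 in replicate 2. The growth factor and chemokine median exceeded it by 5.56 ± 0.53, that of antigen presentation by 5.50 ± 0.38 and that of granulocytes and mast cells by 5.14 ± 0.58. These differences were not tested, because an exact test over 2 libraries cannot pass 0.05.

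Genes of the T cell receptor complex did not keep the same level. Cd3e, a signalling chain gene, had 1.14 TPM in replicate 1 and 1.88 in replicate 2, on 47 and 78 counts. Cd3d, its partner chain gene 11.4 kb away on chromosome 9, had 0.11 and 0.03 TPM, on 4 and 1 counts, and the coreceptor gene Cd8a had 0.04 TPM on 4 counts and 0 TPM on 0 counts. With 0 counts in replicate 2, Cd8a could have been present at up to 0.0321 TPM there, the level of 3 counts. From the list of other lymphoid genes, Cd3g had 0.81 and 0.52 TPM and Cd247 had 0.44 and 0.58 TPM. Cd3e had a log2 ratio of -0.68 (95% interval -1.24 to -0.15, adjusted p 0.038) that became -0.01 with spike-in scaling.

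B cell genes also differed in level. Cd79a, a signalling chain gene of the B cell receptor, had 0.93 TPM in replicate 1 and 1.26 in replicate 2, on 39 and 53 counts. Ms4a1, the gene of CD20, had 0.01 TPM on 1 count and 0 TPM on 0 counts, and up to 0.0347 TPM was possible in replicate 2. Il7r, the interleukin 7 receptor gene of lymphoid progenitors and innate lymphoid cells, had 0.99 and 0.77 TPM on 95 and 74 counts.

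Rag1, the recombinase gene of developing T and B cells, had 17 counts in replicate 1 and 2 in replicate 2, or 0.08 and 0.01 TPM. Its log2 ratio was 2.84 (95% interval 1.05 to 6.29). All 80 bases that Rag1 shares with another gene's exons are shared with B230118H07Rik, on the same strand, which had 41.9 and 45.5 TPM. Rag1 was no longer tested when at least 50 counts were required.

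In a list of 25 other T, B, NK and innate lymphoid genes, 11 were detected and none was called. Among them Tcf7, a regulator of T cell development that is not limited to lymphoid cells, had 6.15 TPM in both libraries. Lck, a kinase gene of T cells, had 5.21 TPM in replicate 1 and 5.64 in replicate 2. Rag2, Dntt and Pax5, genes of lymphoid precursors, lay between 0 and 0.10 TPM. Other B cell genes of the list were detected, with Vpreb1 and Igll1, the surrogate light chain genes of B cell precursors, at 1.98 and 2.43 TPM and at 1.00 and 1.44 TPM. Ighm had 4.90 and 4.52 TPM, and Cd79b had 3.01 and 2.85 TPM.

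Transcript shares were read for the 32 genes that had 100 or more counts per library. The same transcript led in both libraries in 31 of them, it was protein-coding in 30, and it held over 90% of the gene's TPM in both libraries in 18, of which 8 have a single transcript in the tables. The shares rest on the authors' split of reads between overlapping transcripts, and no test of shares was made.

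Aif1 was the exception. A transcript with a retained intron, Aif1-205, led by TPM in replicate 1 with 54.0% against 45.1% in replicate 2, and the coding transcript Aif1-203 held 45.1% and 54.9%. By counts Aif1-203 led in both libraries, with 159 and 227 counts against 93 and 91 for Aif1-205. Aif1-205 is the shorter, at 462 bases against 842, which raises its TPM per count. By the authors' posterior mean shares Aif1-205 led in both libraries, with 53.0% and 43.9%. The coding message of IBA1 was thus part of the level listed for Aif1, not all of it.

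Stab1 was led by Stab1-202, a transcript of 242 bases annotated without a coding frame, with 33.8% of its TPM in replicate 1 and 37.8% in replicate 2. Of its bases, 108 lie within exons of Nt5dc2, a gene on the opposite strand that had 283 and 286 TPM. The full-length coding transcript, Stab1-201, held 13.1% and 14.6%, and all coding transcripts of Stab1 together held 13.2% and 14.6%. These are shares of TPM, which divides by length. By counts, Stab1-201 held 927 of 1755 in replicate 1 and 1123 of 1947 in replicate 2. Stab1-202 held 43 and 53 counts. Whether reads of Nt5dc2 entered the Stab1 level was not tested.

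Ptprc-203 held 52.8% of the Ptprc level in replicate 1 and 35.4% in replicate 2, and Ptprc-204 held 9.88% and 23.1%. Both are coding, as are the main transcripts of Csf1, where Csf1-201 held 53.4% and 42.5% and Csf1-202 held 26% and 36.5%. Laptm5-210 held 43.7% and 55.8% of Laptm5, and Spi1-201 held 60.6% and 68.2% of Spi1. Csf1r-202 held 82.6% and 77.6% of Csf1r, and Cxcl12-202 held 83.2% and 79.9% of Cxcl12.

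**Figure D4:**
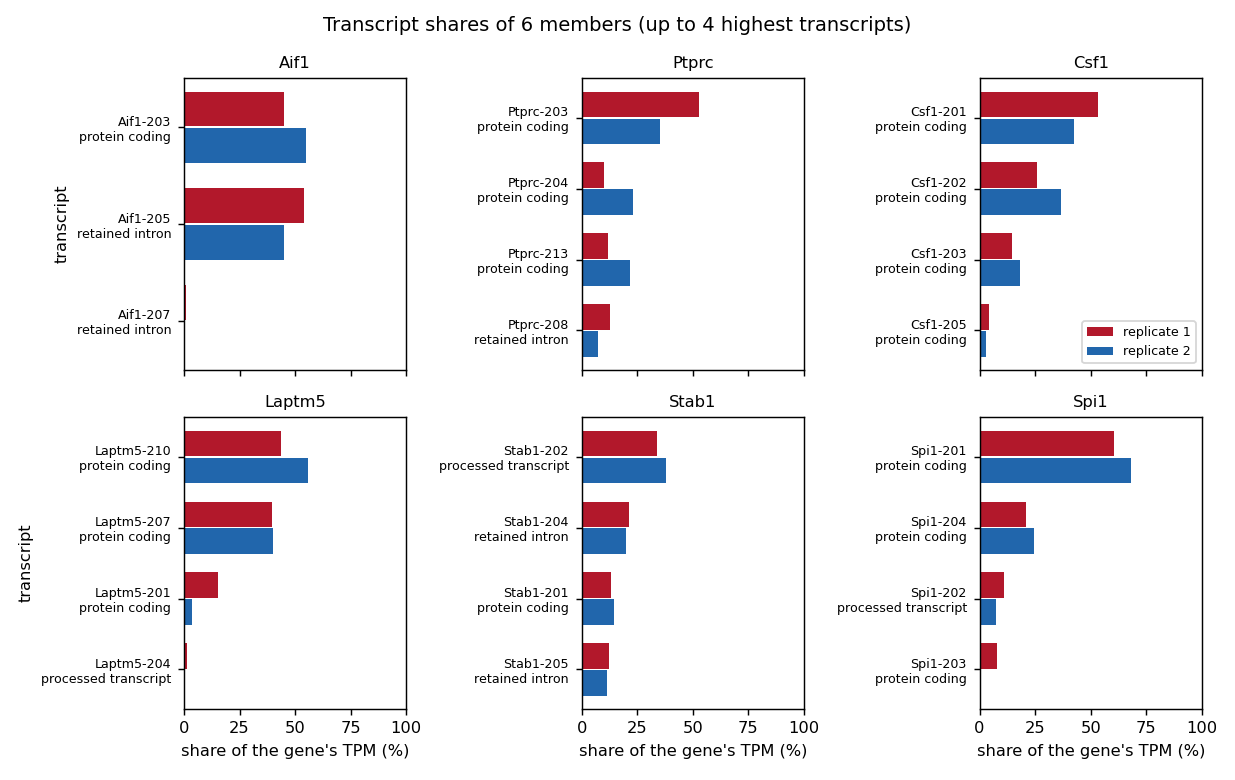
Share of each gene's TPM on its highest transcripts, up to 4, in percent, for Aif1, Ptprc, Csf1, Laptm5, Stab1 and Spi1, with replicate 1 in red above replicate 2 in blue. The leading transcript of Aif1 differs between the libraries, and the longest bars of Stab1 belong to the transcript without a coding frame, at 33.8% and 37.8%.

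Exons of other genes also overlapped members on the opposite strand, and the strand setting of the counts was not given in the sources used here. Csf1r shares 873 exon bases with Hmgxb3, which had 8.36 TPM in replicate 1 and 9.73 in replicate 2, and Cd52 shares 172 with Crybg2, at 9.45 and 9.97 TPM. Mpo shares 512 with an antisense gene at 0.41 and 0.07 TPM. Reads of such pairs cannot be told apart without strand, and without the members that overlap another gene's exons the macrophage median over both libraries was 10.6 TPM, a choice made after the values were seen.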

How the data were processed

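Total RNA of 2 pools of E15.5 mouse stomachs was measured by RNA-seq and quantified by the authors against mm10 with annotation M4, per the text deposited beside the tables. The quantification program, aligner and strand setting are not given in the sources used here. Per the file headers, each gene and transcript has an expected count with its posterior SD, TPM and FPKM, and a posterior mean TPM. Per the file headers, transcript tables also give a percent, which is how much of the TPM of its gene each transcript holds. The authors' TPM total includes the spike-ins, which took 4.01% in replicate 1 and 6.51% in replicate 2.

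Symbols, types and coordinates came from GENCODE M21 (42462 of 43346 genes matched, 98.0%). Spike-ins and features with numeric IDs, which held 86 and 85 counts, entered neither library sizes nor tests. Of the 46 genes, 42 had whole counts in both libraries, and the largest posterior SD was 8.38 reads. Expected counts were rounded for the tests. TMM factors (0.997 and 1.003) came from edgeR 4.0.16, size factors for an alternative from DESeq2 1.42.0 (R 4.3.3), and the binomial test, its Clopper-Pearson 95% intervals and the Benjamini-Hochberg adjustment over all genes tested from scipy 1.17.1 in Python 3.11.15. Ratios had a prior count of 0.5, and log2 levels a pseudocount of 0.1. The test was run on simulated counts before use. Replicates are labelled biological and as separate biosamples with 1 shared donor entry, so SDs measure only the spread between these samples. Binomial p-values, intervals and floors cover counting error only, since reads carry no molecular identifiers.

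The 46 genes and all lists were chosen with earlier results of these data known. All 46 genes are accounted for; of each other list the text names the 3 genes highest in mean TPM and called genes, not always with values, and further genes chosen after their values were seen. A few genes under this rule are not reported here. Alternatives were other detection limits, units, library sizes, count minimums and tests, and each library left out.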

Additional observations from a re-analysis of the deposited data

How the results depend on the processing

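Of 107 alternative values, 84 stayed within the replicate SD or, for counts, within 1.5-fold. The lymphoid genes detected numbered 3 at 0.5 TPM, 0 at 2 TPM and 0 by FPKM, and 1 to 2 with either library left out, against 1. The macrophage median of 14.7 TPM was 10.1 in FPKM, 15.5 TPM without spike-ins in the total and 31.8 TPM as a mean over genes. Added after the values were seen, it was 10.1 TPM from protein-coding transcripts, 11.9 TPM without the 4 pan-leukocyte genes and 10.6 TPM without genes that share exon bases with another. The antigen presentation median of 8.51 TPM was 5.88 in FPKM, and the lymphoid median of 0.07 TPM was 0.518 TPM as a mean. The macrophage minus lymphoid difference of 6.47 was 5.20 from means and 3.87 with a pseudocount of 1.

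Genes called between libraries numbered 3420 with spike-in sizes (98.5% of them higher in replicate 1, against 87.9% of the 1353), 853 at 50 or more counts, 687 by edgeR and 2039 at a log2 ratio of 0.5. Of the 46 genes 9, 1, 1 and 4 were called under these settings, against 2; with spike-in sizes the macrophage median log2 ratio was 0.80, against 0.13. Elane was called under all 7 alternatives, which reuse the same pair of libraries. The cause of these shifts was not tested. No paired analysis was possible because there is 1 group, and a library left out leaves no ratio to test. Lymphoid genes and Rag1 rest on few counts, and with 2 pools a difference between them cannot be assigned to a condition.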

Other observations

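Genes of other complement factors were read beside C1q. Of 12, 8 were detected, and the highest were the C1 inhibitor gene Serping1 at 65.3 TPM in replicate 1 and 61.9 in replicate 2, Cfb at 25.2 and 17.0 TPM and C3 at 16.6 and 7.74 TPM. C3, Masp1 at 1.36 and 0.57 TPM and Hc at 1.73 and 0.62 TPM were called higher in replicate 1. The median log2 ratio of the list was 0.57, whereas the C1q chains stood at 0.05, 0.18 and -0.34. Among platelet and megakaryocyte genes Gfi1b, a regulator shared with red cell precursors, had 5.70 and 2.55 TPM and was called higher in replicate 1 (log2 ratio 1.20).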
